A study of Mus musculus with 8 samples.

Results

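Cluster 11 of a single-nucleus RNA-seq map of mouse liver is taken as plasmacytoid dendritic cells, and its members are the nuclei averaged in the control (wt_11) and MKO (ko_11) columns of that cluster. The deposited table holds means per cluster and not single nuclei, and the number of nuclei was recovered from the size of the smallest steps in each column. By that estimate cluster 11 held 78 nuclei of 17485, 36 of 8281 for control and 42 of 9204 for MKO. Control mice carried Tgfbr1 flox/flox alleles without Cre, and Tgfbr1 MKO mice carried those alleles with LysMcre, a Cre recombinase driven from the Lyz2 locus of myeloid cells. Tgfbr1 encodes the type I receptor for TGF-beta. Every mouse in both genotypes had eaten a MASH diet, a model of metabolic dysfunction-associated steatohepatitis, for 30 weeks, and ages are not analysed here. Each nucleus library pooled 3 livers of a genotype, so a difference between the pools has no replicate check, and each bulk genotype had 3 libraries. The bulk libraries held between 17448117 and 23986319 recovered reads.

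Plasmacytoid dendritic cells are blood-borne immune cells that sense viral and self nucleic acids through endosomal Toll-like receptors and can release large amounts of type I interferon. Their identity depends on the E protein TCF4, with RUNX2, IRF8, BCL11A and ZEB2 as further factors, and it is kept apart from conventional dendritic fate, which ID2 favours. Surface receptors such as SIGLECH pass signals through ITAM adaptors and a kinase chain related to that of the B cell receptor.

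The 5 marker genes were all highest in cluster 11 in both pools. Levels are given as the mean count of a gene per 10000 unique molecular identifiers (UMIs, each standing for a captured RNA molecule) of a nucleus, and where 2 levels stand together the control pool comes before the MKO pool. Siglech, a sialic acid-binding receptor, stood at 31.6 and 25.5, and the highest other cluster reached 0.14 and 0.0069. Cd300c, a receptor of the CD300 family, stood at 5.14 and 7.90, against at most 0.08 elsewhere. Ccr9, the receptor for the chemokine CCL25, stood at 7.36 and 8.31, against at most 0.36. The transcription factor Runx2 stood at 62.0 and 43.6, against 2.94 and 4.73 in cluster 7, the T and NK cell cluster. Irf8, which encodes a factor that directs dendritic cell development, stood at 20.7 and 16.5, against at most 1.49 and 2.77. On GRCm38 with GENCODE M21 the marker genes are Siglech (chr7:55768178-55778925, + strand), Cd300c (chr11:114956116-114969157, - strand), Ccr9 (chr9:123678439-123784330, + strand), Runx2 (chr17:44495987-44814797, - strand) and Irf8 (chr8:120736358-120756694, + strand). Because the clusters were made from these nuclei, those levels describe the cluster and are no test of it.

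**Figure D1:**
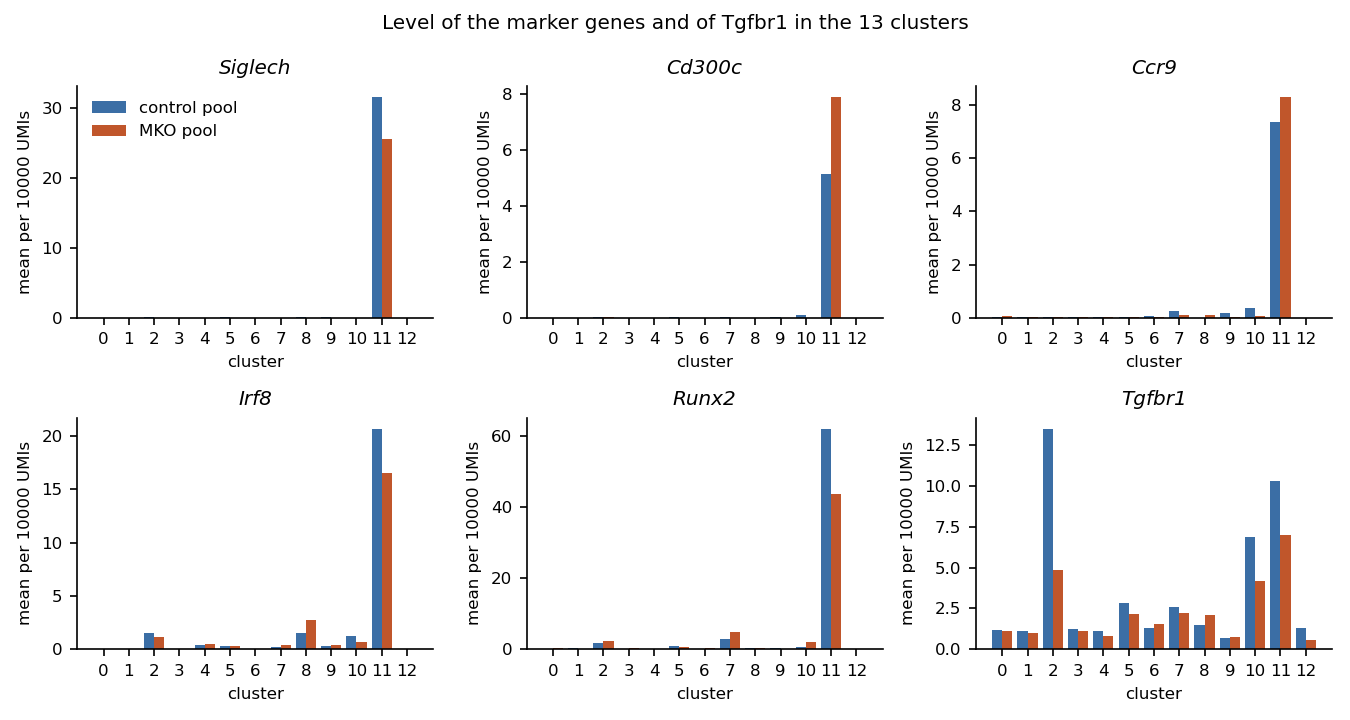
Mean level per 10000 UMIs (vertical axes, linear from 0) of the 5 marker genes and of Tgfbr1 in clusters 0 to 12 (horizontal axes); blue bars are the control pool and orange bars the MKO pool, with no replicates. The marker bars stand almost alone at cluster 11, while Tgfbr1 is also high in cluster 2.

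Promoter sequence is shown for the 3 surface receptors among the markers, since their transcripts were near 0 in the other clusters. The sequences come from the RefSeq table for GRCm38.p6, read 5′ to 3′ on the strand of the gene, and cover the 250 bases before the annotated start without bases that GENCODE M21 places in an exon. Siglech is shown from chr7:55767934-55768177 (+ strand), Cd300c from chr11:114960508-114960757 (- strand) and Ccr9 from chr9:123766961-123767168 (+ strand). The RefSeq starts used for Cd300c and Ccr9 lie inside the GENCODE gene spans given above. Capitals mark matches, which do not overlap, to CAGGTG (an E-box), TGTGGT (a RUNX motif) or an interferon regulatory factor motif (GAAA, any 2 bases, GAAA), each searched on both strands.
Siglech: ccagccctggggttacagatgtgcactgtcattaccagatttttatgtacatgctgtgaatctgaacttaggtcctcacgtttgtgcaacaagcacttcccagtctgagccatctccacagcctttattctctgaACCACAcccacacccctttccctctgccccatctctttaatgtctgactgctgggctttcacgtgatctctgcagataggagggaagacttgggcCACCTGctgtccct
Cd300c: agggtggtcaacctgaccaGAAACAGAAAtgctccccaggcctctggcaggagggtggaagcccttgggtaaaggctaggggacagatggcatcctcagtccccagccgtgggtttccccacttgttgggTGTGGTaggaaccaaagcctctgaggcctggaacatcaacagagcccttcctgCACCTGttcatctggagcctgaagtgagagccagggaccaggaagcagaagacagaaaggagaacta
Ccr9: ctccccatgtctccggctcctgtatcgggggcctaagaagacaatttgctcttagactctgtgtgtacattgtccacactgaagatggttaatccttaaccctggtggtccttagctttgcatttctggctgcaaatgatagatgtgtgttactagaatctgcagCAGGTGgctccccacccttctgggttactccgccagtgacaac
The E-box match lies 14 bases before the Siglech start, 61 before that of Cd300c and 79 before that of Ccr9. Among the 20 genes most restricted to cluster 11, named below, 18 had a promoter in the table. The counts that follow used all 250 bases, with exon bases kept. CAGGTG occurred in 7 of those 18, against 17.1% of 27025 promoters of the same length. TGTGGT occurred in 5 of 18, against 14.2%, and the interferon regulatory factor motif in 1 of 18, that of Cd300c, against 3.04%. Such a match is a description of the letters and not a bound site.

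Of 787 genes well measured in both pools (at or above the 90th percentile of non-zero values, 2.21 in the control and 1.85 in the MKO pool), 70 were at least 2-fold above each of the other 12 clusters in both pools, which is 8.89%. At least 4-fold applied to 32 genes, and 191 were highest in cluster 11 in both pools. Besides Siglech, Cd300c, Ccr9 and Runx2, the 20 were Lrp8, Pdzd4, Gria3, Havcr1, Mctp2, Grm8, Ppm1e, Zc3h12c, Eldr, Srgap3, Tfrc, Rnf220, Spns3, Rpgrip1, Slc41a2 and Pacsin1. Grm8, a metabotropic glutamate receptor, stood at 50.7 and 29.1, and the next cluster, 1, at 4.51 and 3.36. Gria3, a subunit of AMPA-type glutamate receptors, stood at 13.1 and 6.47, against at most 0.47 and 0.32. Lrp8, a receptor for apolipoprotein E and reelin, stood at 4.72 and 3.40, against at most 0.07. Havcr1, a receptor for phosphatidylserine, stood at 3.41 and 2.29 and was near 0 elsewhere, at most 0.03. Pacsin1, an adaptor of membrane trafficking, stood at 9.48 and 7.02, and cluster 7 was next, at 1.02 in the MKO pool. Tfrc, the transferrin receptor that brings in iron, stood at 6.88 and 5.604, against at most 0.82 and 0.65. The 70 genes were chosen on these nuclei and get no test.

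The list of surface and identity genes of plasmacytoid dendritic cells summed to 217 and 195 in cluster 11, above all other clusters, which reached at most 40.04 and 32.5. Of its 32 genes, 21 were highest in cluster 11 in both pools. St8sia4, a polysialic acid transferase, stood at 24.03 and 20.6, and Lair1, an inhibitory receptor for collagen, at 14.2 and 15.6. Bst2, the antiviral protein tetherin, stood at 4.12 and 5.72, against at most 1.20 and 1.72. Cadm1, an adhesion molecule, was a listed gene that stood higher elsewhere, at 12.4 and 10.1 in cluster 11 and 23.9 and 14.6 in the macrophage cluster, 2. Klk1, Cox6a2 and Il3ra were low, with levels of 0.51 and 1.59 for Klk1, 0 and 0.50 for Cox6a2, and 0 and 0.05 for Il3ra.

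The list of 14 transcription factors summed to 278 and 215, again above all other clusters, which reached at most 87.5 and 75.4. Tcf4 stood at 115 and 85.4, and cluster 4 was next at 17.03 and 16.4. Bcl11a stood at 28.7 and 24.99 and was shared with cluster 8, the B lineage cluster, at 12.2 and 10.4. Zeb2 stood at 23.02 and 20.8, below the 50.2 and 52.8 of cluster 2. Spi1, the myeloid factor PU.1, was seen as 2 and 3 UMIs, against levels of 3.62 and 5.33 in cluster 2. Irf7, the factor that drives interferon genes, was seen as 2 and 4 UMIs. The list of 7 factors of conventional dendritic fate was the lowest of the 13 clusters, at 1.45 and 0.99, about 12 UMIs in each pool. In the MKO pool cluster 12 was almost level with it, at 1.01. Batf3 and Klf4 were at 0 in both pools and Id2 at 3 and 5 UMIs.

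Genes of nucleic acid recognition summed to 36.7 and 34.1 in cluster 11, the highest of the 13 clusters in the control pool and the next to highest in the MKO pool, where the highest reached 35.3. Tlr7, the endosomal receptor for single-stranded RNA, stood at 5.58 and 5.97, against at most 2.41 and 2.07 in cluster 2. Unc93b1, which carries such receptors to endosomes, stood at 6.16 and 7.04, and Pik3ap1, an adaptor to phosphoinositide 3-kinase, at 10.6 and 9.001. Tlr9, the receptor for CpG DNA, was at 0 in both pools, and with 80385 and 121321 UMIs in all, a count of 0 allows up to 3 UMIs per pool. Of the 20 listed interferon genes only Ifnk and Ifnz are in the table, and both were at 0. The list of 13 ITAM and B cell receptor-like signalling genes summed to 69.8 and 63.7, the highest of the 13 clusters in the control pool and the next to highest in the MKO pool. Its best measured members included Lyn, a Src family kinase, at 18.5 and 16.7 and Inpp5d, an inositol phosphatase, at 5.55 and 6.06.

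Most marker lists of other cell types summed to far less in cluster 11 than in the clusters they mark. The 20 hepatocyte genes summed to 91.3 and 143, against 52.2 to 304 and 95.3 to 317 in the other clusters, and none was at 0 in both pools. Macrophage markers summed to 6.76 and 10.96, of which Cybb, a subunit of the phagocyte oxidase, gave 5.91 and 7.32, and cluster 2 summed to 91.7 and 106. Of the 20 macrophage markers 6 and 15 were above 0, and in the MKO pool Mertk numbered 10 UMIs with 6 in 1 nucleus. Lyz2, the gene whose locus drives the Cre, was at 0 for control and at 3 UMIs for MKO. B cell markers summed to 7.23 and 7.68, mostly Ighm at 5.25 and 5.26, against 219 and 203 in cluster 8. The 10 endothelial markers summed to 4.12 and 9.47, with Pecam1 at 2.50 and 5.18 and Stab2 at 0.17 and 1.61, against 158 and 154 in cluster 4. Of 22 T and NK cell markers 17 were at 0 in both pools, and the 7 neutrophil and basophil genes in the table were at 0. Dividing-cell markers summed to 0 and 0.10. Clec9a, a marker of conventional dendritic cells type 1, stood at 2.28 and 2.69 while Xcr1 was at 0. The 9 genes of type 2 and mature conventional dendritic cells summed to 2.68 and 3.38, against 12.5 and 11.6 in cluster 2. In the MKO pool Cacnb3 numbered 10 UMIs, Ccr7 3 and Il4i1 2, each gene within 1 nucleus, at the step of the deepest one (0.0367 per UMI). Whether cluster 11 holds nuclei of other cell types was not tested.

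**Figure D2:**
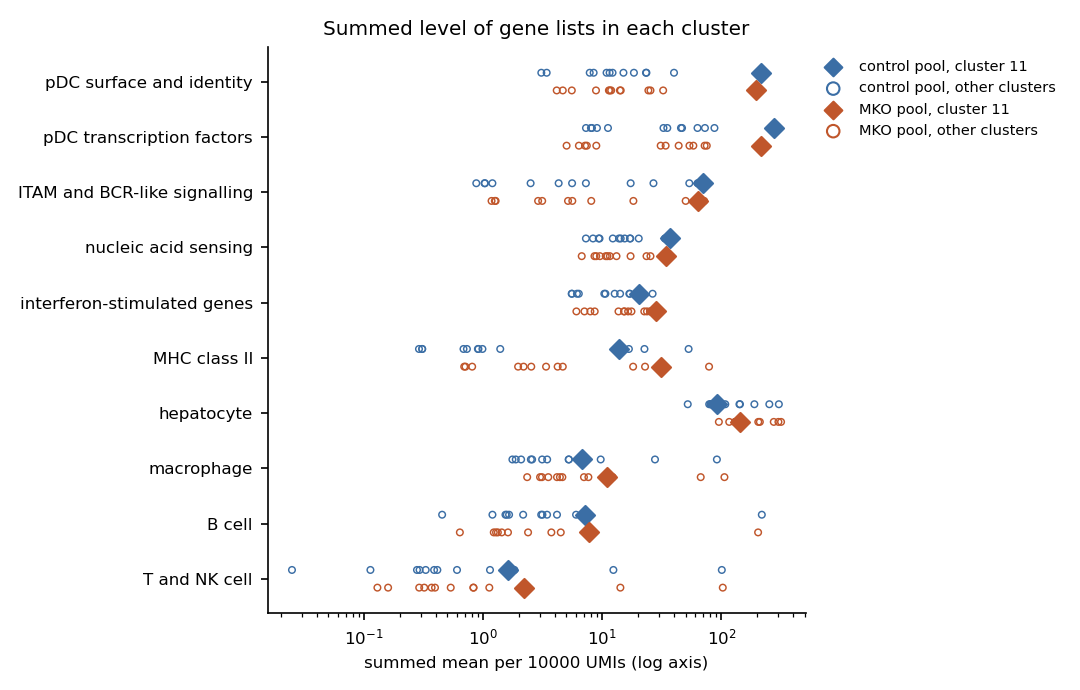
Summed level of 10 gene lists per 10000 UMIs (horizontal axis, log scale) in each of the 13 clusters; filled diamonds are cluster 11, open circles the other 12, blue the control pool and orange the MKO pool. Cluster 11 lies right of all other clusters for the surface list (217 and 195) and the transcription factor list (278 and 215).

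Across 3843 genes, the control and MKO columns of cluster 11 correlated with Pearson r = 0.906 on the log scale. With the B lineage cluster r was 0.715 within the control pool and 0.722 within the MKO pool. With the T and NK cluster it was 0.654 and 0.670, and with the macrophage cluster 0.652 and 0.668. These describe the columns, which share a library and its free RNA within a pool, and genes are not independent replicates.

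Cluster 11 made up 0.435% of control nuclei (exact 95% binomial interval 0.305 to 0.601%) and 0.456% of MKO nuclei (0.329 to 0.616%), and the intervals overlap. Among nuclei of the 4 immune clusters 2, 7, 8 and 11, it made up 36 of 1160, or 3.10% (2.18 to 4.27%), and 42 of 2298, or 1.83% (1.32 to 2.46%). The macrophage cluster, by contrast, held 8.27% and 18.2% of nuclei. Intervals here and below cover counting error only and not the spread between livers, and a sort of nuclei preceded the libraries. Nuclei of cluster 11 held 722 to 4070 UMIs with a median of 2127 for control, and 831 to 6486 with a median of 2525.5 for MKO, so a molecule is worth about 0.131 and 0.0943 at the median depth. The table listed 9527 and 11229 of 22578 genes above 0. Barcodes and doublets were not analysed here.

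The comparison of the pools asks what a myeloid deletion of Tgfbr1 goes along with in a cell type in which transcripts of the Cre locus numbered 0 and 3 UMIs. Tgfbr1 itself (chr4:47353222-47414931, + strand) stood at 10.3 and 6.98 in cluster 11, a ratio of 0.68 with a counting interval of 0.496 to 0.930. In the macrophage cluster it stood at 13.5 and 4.87. Its log2 ratio was -0.55 in cluster 11 and -1.44 in the macrophage cluster. It was also below 0 elsewhere, such as -0.92 in cluster 12, -0.70 in cluster 10, -0.38 in cluster 5 and -0.35 in cluster 4. In clusters 6, 8 and 9 it was above 0. A floxed exon can leave a transcript that still counts, and whether UMIs map to the deleted part is not given, so this checks the labels only in part. Tgfbr2, the other receptor chain, stood at 2.49 and 1.36, and the 25 genes of the TGF-beta pathway summed to 29.4 and 21, with 2 well measured and neither 2-fold apart.

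Nearly all well measured identity genes lay within 2-fold between the pools. Among 1233 genes whose larger value reached 2.05, 64 were at least 2-fold higher in the MKO pool (5.19%) and 71 at least 2-fold lower (5.76%), using log2 ratios with a pseudocount of 0.205, and the median log2 ratio was -0.12. Centred on that median, the counts were 88 higher and 49 lower. A gene could enter through 1 pool only, a rule that favours genes far apart, so these counts lean towards large ratios. Of the 22 well measured surface genes, 1 was at least 2-fold higher, namely Pltp, which encodes the phospholipid transfer protein, at 1.82 and 3.95, and 0 were lower, with a median of -0.0044; the count higher was 3 with ratios centred on all genes and 0 after the other clusters' median ratio was removed. All 9 well measured transcription factors had values lower in the MKO pool, with a median log2 ratio of -0.20 beside the -0.12 of all genes. With ratios centred on all genes 8 of 9 were lower, and none was 2-fold apart. After the other clusters' median ratio was removed all 9 were lower, with a median of -0.19 beside the -0.046 of all genes. Runx2 had the log2 ratio -0.51 (counting interval of the raw ratio 0.619 to 0.794), Irf8 -0.32 and Tcf4 -0.43. Siglech had -0.31, Ccr9 0.17 and Cd300c 0.60. Among the 20 most restricted genes Gria3, at 13.1 and 6.47, lay just inside the 2-fold limit with a log2 ratio of -0.9976, and Grm8 had -0.80.

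**Figure D3:**
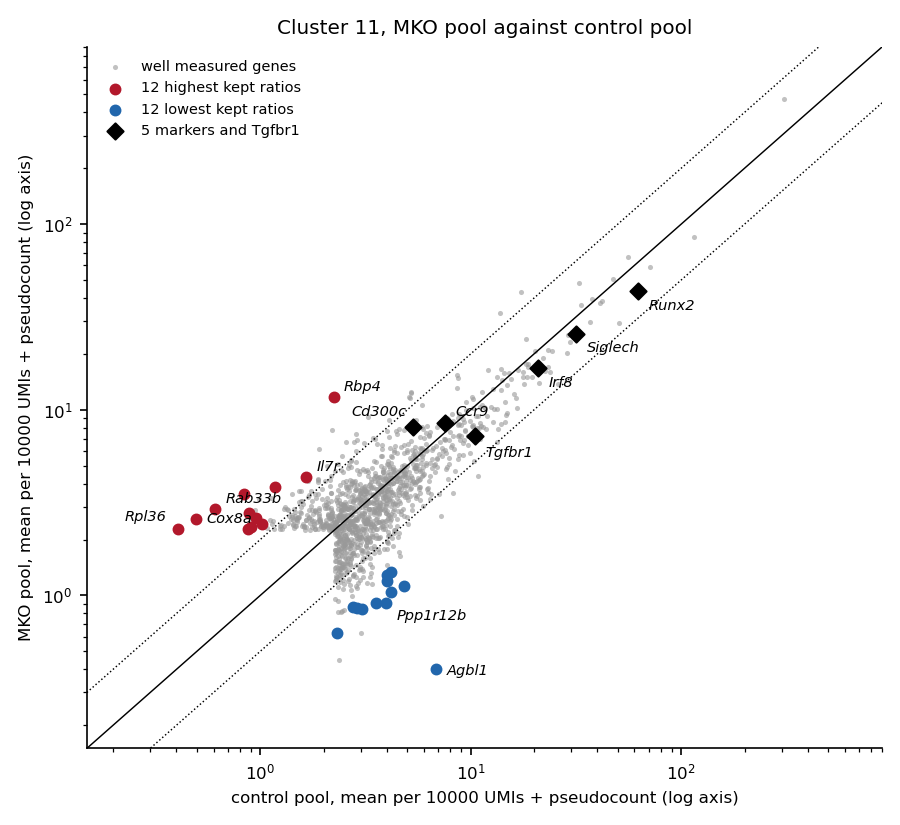
Level of 1233 well measured genes in cluster 11 in the control pool (horizontal) and the MKO pool (vertical), mean per 10000 UMIs plus a pseudocount of 0.205, both on log axes; the solid line marks equal values, the dotted lines 2-fold, and each point is a gene. Red and blue points are the 12 highest and 12 lowest ratios among genes still at least 2-fold apart after the other clusters' median ratio was removed, and black diamonds are the 5 markers and Tgfbr1, which lie within the dotted lines.

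After the median log2 ratio of the other 12 clusters was removed gene by gene, 23 of the 64 and 41 of the 71 were still at least 2-fold apart. Agbl1, a carboxypeptidase that trims glutamates from proteins, stood at 6.63, about 53 UMIs, for control and at 0.20, 2 UMIs in 2 nuclei, for MKO. Its raw control over MKO ratio had a counting interval of 10.5 to 339, and how many control nuclei held its UMIs was not recovered. Cluster 8, the next highest, had Agbl1 at 1.69 and 2.09. Ppp1r12b, a regulatory subunit of myosin phosphatase, stood at 3.75 and 0.70 (about 30 and 9 UMIs), and Pik3ca, a catalytic subunit of phosphoinositide 3-kinase, at 3.35 and 0.70 (about 27 and 9). Of the others among the 12 lowest, Dpyd, Egfr and Ghr are genes with levels of 41.9 to 84.1 in a hepatocyte cluster, and Atg16l1, Man1b1, Erc1, Phlpp2, Pir and Bclaf1 ranged from 2.10 to 3.98 for control and from 0.42 to 1.13 for MKO. All 12 reached the level minimum of 2.05 in the control pool only.

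Higher in the MKO pool were Rab33b, a small GTPase of the Golgi, at 0.41 (4 UMIs) and 2.72 (about 33), with at most 0.24 in the other clusters, and Il7r, the receptor chain for interleukin 7, at 1.44 and 4.14 (about 12 and 50 UMIs). Rbp4, which encodes the retinol carrier made by hepatocytes, stood at 2.03 and 11.5 (about 16 and 140 UMIs). The others were Rpl36, Cox8a, H2-T23, Rps27, Ttc19, Lrmda, Tank, Rpl31 and Tcf25, at 0.20 to 0.98 for control and 2.07 to 3.66 for MKO. Each of these higher genes reached the level minimum of 2.05 in the MKO pool only. Ribosomal protein genes recurred among them, and a count over all such genes, made after their values were seen, found 10 of 36 well measured members at least 2-fold higher and 0 lower, or 3 and 0 after the other clusters' median ratio was removed. Over all well measured genes 5.19% were that much higher, or 2.43% after the removal. Beside these ratios, the hepatocyte list, with 4 of 13 well measured members at least 2-fold higher and 1 lower (0 and 0 after the removal), summed to 1.57 times its control level in cluster 11, and the median of the same ratio over the other clusters was 1.46. The endothelial list summed to 2.30 times its control level, beside a median of 0.96. Malat1, a nuclear RNA, stood at 309 and 470, and all 9 well measured handling and RNA quality genes had higher values in the MKO pool, or 2 of 9 after that removal. The part of free RNA, other cells and depth in these ratios was not tested.

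Of the 10 MHC class II genes, which serve antigen presentation, 4 were well measured in cluster 11. Cd74, the invariant chain of MHC class II, stood at 4.97 and 12.1, and H2-Aa, an MHC class II chain, at 2.58 and 6.48. H2-Ab1 stood at 2.07 and 4.49 and H2-Eb1 at 2.43 and 4.87, so 3 of 4 well measured members were at least 2-fold higher, or 0 of 4 after the other clusters' median ratio was removed. Among all well measured genes those shares were 5.19% and 2.43%. The list of 10 summed to 13.8 and 31.2, a ratio of 2.26, and the median ratio of the other clusters was 2.54, from 1.01 in the macrophage cluster (22.6 and 22.9) to 4.73. Ciita, the master regulator of these genes, stood at 0.59 and 0.68. With the other clusters' median removed, Cd74 had a log2 ratio of 0.23. The 27 interferon-stimulated genes in the table summed to 20.3 and 28.4, a ratio of 1.40 beside a median of 1.26 in the other clusters, with 5 well measured and none 2-fold apart. Ifnar2, an interferon receptor chain, stood at 5.70 and 7.65, and Trim30a at 3.83 and 5.07.

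The share of genes apart between the pools varied among clusters, and the smallest clusters had the highest. In cluster 11, 10.9% of well measured genes were at least 2-fold apart and the interquartile range of log2 ratios was 0.73. Clusters 10 and 12, with 31 and 21 control nuclei, had 21.5% and 19.1%, and the largest clusters, 0 and 1, had 3.86% and 3.70%. The macrophage cluster, with 685 and 1676 nuclei, had 10.5%.

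**Figure D4:**
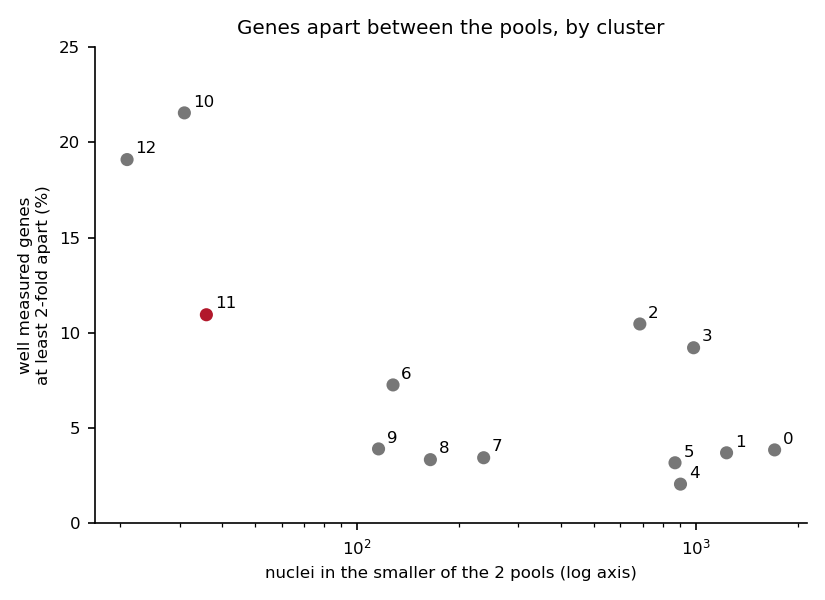
Share of well measured genes at least 2-fold apart between the pools (vertical axis, percent) against the number of nuclei in the smaller pool (horizontal axis, log scale); each numbered point is a cluster and cluster 11 is red. Clusters 10 and 12 lie highest, at 21.5% and 19.1%, and cluster 11 lies at 10.9%.

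Bulk liver offered replicates for the same genes, measured across all cells of the tissue, where fewer cells of a type and less RNA per cell cannot be told apart. Values are normalised read counts, and tests are limma's on log2(value + 1) with Benjamini-Hochberg adjustment over 15249 genes. Control and MKO livers stand here for the 3 libraries of each genotype, which the labels do not tie to separate mice. Siglech, whose signal in the nuclei lay almost wholly in cluster 11 (93.8% of the control pool, each cluster weighted by its nuclei), stood at 15.2, 23.1 and 17.7 in control and at 25.6, 26.5 and 11.6 in MKO livers. The groups overlapped, and the log2 difference was 0.11 ± 0.39 (SE, limma adjusted p = 0.947). Ccr9 stood at 21.7, 28.3 and 23.7 in control and 23.2, 15.3 and 9.63 in MKO livers, again overlapping (log2 difference -0.66 ± 0.37, limma adjusted p = 0.548). Neither difference passed the test, which does not show that the levels were equal. Runx2 stood at 26.1, 17.8 and 21.7 in control and 40.3, 61.2 and 49.1 in MKO livers, without overlap, but did not pass (log2 difference 1.16 ± 0.27, limma adjusted p = 0.068). Irf8 stood at 199.8, 193 and 125 in control and 319, 306 and 256 in MKO livers, without overlap and also short of the threshold (0.79 ± 0.20, limma adjusted p = 0.097).

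Of the 46 listed surface genes and transcription factors, 39 were tested in bulk, 10 rose and 0 fell. Of all genes tested 2.96% rose and 0.0853% fell, 3.05% in all. The groups did not overlap for 20 of the 39, and for 19.4% of all genes tested. The median log2 difference of the 39 was 0.50. Lair1, Pld4, Tspan13, Pltp, Csf2rb, St8sia4, Irf7, Zeb2, Ikzf1 and Spi1 were the 10. Pld4, an endolysosomal nuclease, stood at 167, 147 and 106 in control and 641, 602 and 653 in MKO livers (log2 difference 2.19 ± 0.18, limma adjusted p = 0.0023). Spi1 stood at 119, 122 and 81.8 against 332, 382 and 587 (1.98 ± 0.24, limma adjusted p = 0.0050). Irf7 stood at 717, 558 and 587 against 1213, 1122 and 1396, and Ikzf1, a lymphoid zinc finger factor, at 78.2, 71.4 and 55.2 against 162, 205 and 200.3. For none of these 4 did the groups overlap. In the nuclei of the control pool, cluster 11 held 10.7% of the Pld4 signal and cluster 2 held 73.7%, and for Spi1 the shares were 0.22% and 92.1%. The share is weighted by nuclei and not by their depth, which lowers the part of large cells. Of the 20 genes most restricted to cluster 11, 14 were tested in bulk, and limma called 0, with 1 at an unadjusted p under 0.05; edgeR's quasi-likelihood test called 0 and DESeq2 called 1, Runx2. Their median log2 difference was 0.06, beside -0.02 for all genes. In the same libraries 11 of 20 macrophage markers rose and 1 fell (median log2 difference 1.51), 11 of 13 ITAM and B cell receptor-like genes rose (1.48), and 3 of 21 T and NK cell markers rose (1.40, all 21 positive); their part in the listed genes was not tested. The count of 10 dropped to 5 without control replicate 2, without MKO replicate 2 and without MKO replicate 3.

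**Figure D5:**
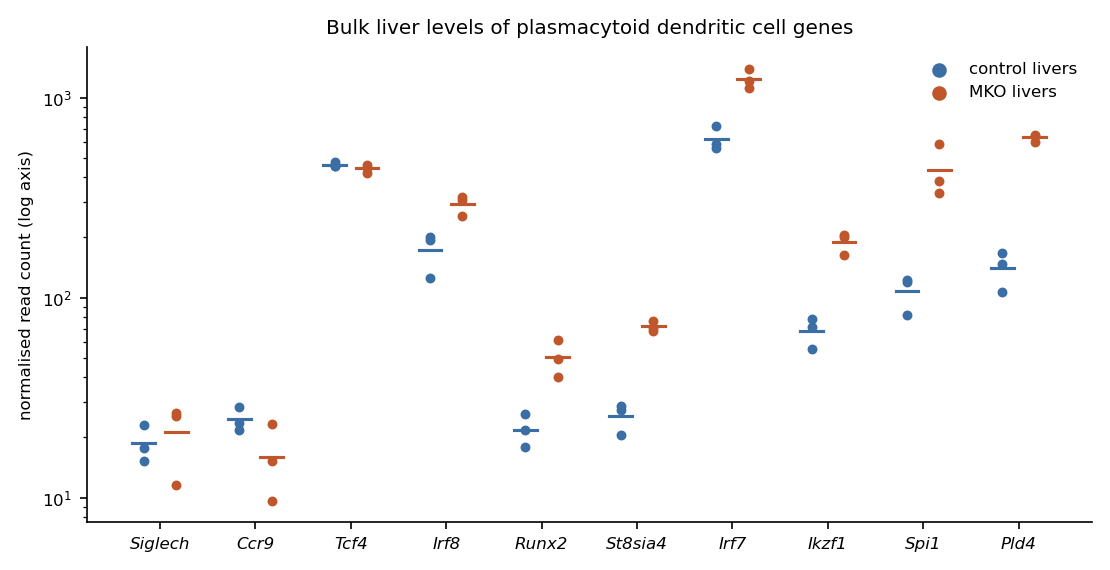
Normalised read count in bulk liver (vertical axis, log scale) of 10 genes that are markers or members of the plasmacytoid dendritic cell lists. Each point is a library, blue control and orange MKO, with 3 per genotype, and short lines mark the means. Siglech and Ccr9 overlap between the genotypes, while all MKO points of Spi1 and Pld4 lie above all control points. In the nuclei of the control pool, most of the Spi1 and Pld4 signal lay in the macrophage cluster.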

How the data were processed

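Frozen livers gave 6 bulk libraries and 2 pooled nucleus libraries, grouped by the labels. The submitters' processing notes name FastQC, STAR, DESeq2, Cell Ranger, RSEM (1.3.3), Seurat (4.0.1) and mm10, and their roles, settings and filters were not stated. What the authors deposited for bulk is a signal, read counts over a size factor. Its values came out as whole reads in 100% of cases at a tolerance of 0.01. Their log2 fold changes and p-values in the same deposited table were not used. For nuclei the deposited signal is a mean per cluster and genotype, and each column sums to 10000.

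In a mean of UMIs scaled per nucleus, a gene seen as 1 UMI in 1 nucleus has a value set by the nucleus and its depth. Nuclei per column and UMIs per nucleus were recovered from such steps, and 180 of 218 low values were decoded to whole UMIs; elsewhere UMIs are estimates, which came within 1 UMI for 88.9% of the decoded values and within 6 for all. On simulated columns the number of nuclei was recovered in 4 of 4. Those columns used numbers of nuclei that were also found here, and all nuclei of a column shared 1 expression profile. Decoding was simulated for small UMI numbers only, so the check is a limited one. Well measured means the 90th percentile of non-zero values, the pseudocount was 1/10 of it, and called means 2-fold. With 1 pool per genotype no test was possible. Bulk was tested with limma 3.58.1 (limma-trend, two-sided, log2(value + 1), mean of at least 1, R 4.3.3), with edgeR 4.0.16 and DESeq2 1.42.0 on recovered reads as alternatives, and genes with a limma adjusted p under 0.05 were called. The labels do not tie the bulk libraries to separate mice, so the p-values reflect the spread among the libraries, which may be technical.

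Named genes were the markers, Tgfbr1, the 20 most restricted genes, the 12 highest and lowest ratios kept after removing the other clusters' median, the best measured list members and the called list members in bulk; symbols that look like clone names were counted only. The members and gene lists were chosen with earlier results of these data known.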

Additional observations from a re-analysis of the deposited data

Results flagged for a closer look

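Among the markers, and the well measured genes of the plasmacytoid dendritic lists that were at least 2-fold higher in bulk, there were 4 whose value in cluster 11 was lower in the MKO pool while all 3 bulk MKO libraries lay above all 3 control libraries. The log2 ratios in cluster 11 were -0.51 for Runx2, -0.32 for Irf8, -0.22 for St8sia4 and -0.15 for Ikzf1. Centred on the median of all well measured genes (-0.12) they were -0.39, -0.20, -0.09 and -0.03, so the sign of St8sia4 and Ikzf1 rests on small values. The bulk log2 differences were 1.16, 0.79, 1.47 and 1.46, and Runx2 and Irf8 did not pass the bulk test. The bulk groups did not overlap for 20 of the 39 listed genes tested and for 19.4% of all genes. In cluster 11, 11 of 22 well measured surface genes and all 9 well measured transcription factors were lower in the MKO pool. Bulk liver sums over all cells, and Runx2 and Irf8 were also seen in clusters with many more nuclei. In the control pool, cluster 2 had 685 nuclei, with Runx2 at 1.61 and Irf8 at 1.49, while cluster 11 had 36 nuclei, with 62.0 and 20.7. The sign in bulk therefore does not describe cluster 11 alone. The opposite sign was what drew attention, and the difference between nuclei and bulk liver was not tested, since the nuclei have 1 pool per genotype.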

How the results depend on the processing

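Counts of genes at least 2-fold apart between the pools of cluster 11 depended on the settings. From 64 higher and 71 lower, they moved to 184 and 184 with the 80th percentile as level minimum, 33 and 26 with the 95th, 8 and 6 with a pseudocount equal to the minimum, and 30 and 44 with the other clusters' median ratio subtracted. Asking for at least 30 estimated UMIs in 1 pool, a choice made after seeing the data, gave 50 and 23. The MKO pool held more UMIs (121321 against 80385), so this rule lets in genes high in MKO at a lower level and tilts the counts towards higher. Centring on the median ratio gave 88 and 49. The number of genes at least 2-fold above every other cluster fell from 70 to 42, and the interquartile range of log2 ratios from 0.73 to 0.47, with that larger pseudocount, as a larger pseudocount shrinks ratios. In bulk the 10 listed genes that rose numbered 5 to 9 when a library was left out, and all genes called 173 to 443 against 465, lowest without MKO replicate 2. DESeq2 called 684 genes and 12 listed ones. With a replicate block the listed count was 8 and the count of all genes 408, without Csf2rb and Zeb2; deviations of same-numbered libraries correlated at -0.11 to 0.056, so the numbers were not taken to pair samples. No called value of a named gene changed sign under the alternatives run. Low counts in 78 nuclei limit what can be seen.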
